A study of Mus musculus with 2 samples.

Results

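The meiotic recombination genes described here are Spo11, Mei1, Mei4, Hormad1, Hormad2, Dmc1, Tex15, Msh4, Msh5 and Tex11, 10 genes chosen by name and by Entrez gene ID. The array carried 16 probes for them. Of the 10 genes, 9 had a probe bright enough to be tested, among 15277 genes tested in all, and Mei4 did not. All RNA came from male gonads of MCH strain mice, taken on embryonic day 14.5. Both groups carried the transgene labelled Tg-Nanos2 enhancer-3xFLAG-Nanos2-3'UTR, which by its label puts FLAG-tagged Nanos2 under a Nanos2 enhancer. Nanos2 is an RNA-binding protein of fetal male germ cells. One group was RNA recovered with Anti-FLAG M2-Agarose (FLAG IP) and the other was the unprecipitated RNA (input). Each group had 2 one-colour Agilent arrays, described in the series text as biological duplicates. The labels do not say how many gonads were pooled, and whole gonads hold germ cells together with somatic cells. A mock precipitate (no transgene, or another antibody) was not analysed here, so RNA that binds the beads on its own was not measured.

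Meiotic recombination begins when SPO11 and its partners cut the DNA on a chromosome axis that carries the HORMAD proteins. The broken ends are trimmed, coated with recombinases such as DMC1, and paired with the homologous chromosome, and some of the joined molecules are then stabilised by MSH4 and MSH5 and become crossovers. In the fetal ovary germ cells enter this program, whereas in the fetal testis germ cells stop dividing and start meiosis only after birth. NANOS2 is known to act with a deadenylase complex in male germ cells and to hold back meiotic genes.

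Start regions, from 250 bases before to 50 bases after the transcription start, were found in the RefSeq table of build GRCm38.p6 for 7 of the 10 genes. They were searched on both strands for 3 motifs that are background knowledge for meiotic genes, the E2F letters TCCCGC, the E-box CACGTG and the STRA8 motif CNCCTCAG, none of which contains another. The E2F letters were in 3 of the 7 (Dmc1, Hormad1 and Msh5), against 22.0% of the 27025 genes in the table. The E-box was in 1 (Hormad1), against 8.09%, and the STRA8 motif in 2 (Hormad2 and Msh5), against 9.12%. The pieces below set genes that were higher in the FLAG IP (Hormad1, Hormad2) beside genes that were not called (Dmc1, Msh5), each with its match in capitals, read 5′ to 3′ along the gene; where the capitals are the reverse complement, the match is on the other strand.
Hormad1 E-box, chr3:95559608-95559637, plus strand: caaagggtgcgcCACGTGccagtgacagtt
Hormad1 E2F letters, chr3:95559570-95559599, plus strand: gcgcagcttttgGCGGGAatagtggtctgg
Hormad2 STRA8 motif, chr11:4441173-4441202, minus strand: agcaaggcctgCTGAGGGGccaaccttaga
Dmc1 E2F letters, chr15:79605105-79605134, minus strand: aagggggcttgcTCCCGCggccctcatttg
Msh5 STRA8 motif, chr17:35046686-35046715, minus strand: gatcgtcgcggCTGAGGTGacggaaaaggc
The matches are descriptions of the sequence, and genes with and without a call shared the E2F letters and the STRA8 motif.

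FLAG IP 1 was much dimmer than the other arrays: the 75th percentile of its signal was 55.7 intensity units, against 608 on FLAG IP 2 and 1026 and 1038 in the input. Spots well above background made up 66.0% and 70.2% of the input arrays, 42.7% of FLAG IP 1 and 65.4% of FLAG IP 2. Values below are log2 signals relative to the 75th percentile of the same array, called scaled log2 values, so a fold change is a change in a transcript's share of the labelled RNA and not in its amount. On this scale the median spot that was not well above background lay at -4.46 on FLAG IP 1 but between -8.59 and -7.92 on the other arrays, so that a dim gene is measured less far down on FLAG IP 1. A gene was called where limma's Benjamini-Hochberg adjusted p over all genes tested was under 0.05. Nanos2, the transcript of the tagged protein, had scaled values of -1.33 and -1.57 in the input and 0.56 and 0.29 in the FLAG IP, a log2 fold change of 1.88 ± 0.20 (SE, n = 2 arrays per group, adjusted p = 0.00476). Whether its 1 probe read the transgene or the endogenous gene cannot be told apart. In whole tissue, a change in the number of cells of a type and a change in RNA per cell cannot be told apart, and the same holds for the RNA in a precipitate.

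Of the 9 measured recombination genes, 6 were higher in the FLAG IP than in the input by limma, 0 were lower, also at an unadjusted p under 0.05, and 3 were not called. Over all genes tested 28% were called higher and 25.4% lower. The genes that rose were Hormad2, Tex15, Msh4, Spo11, Hormad1 and Mei1, by 1.67-fold to 7.44-fold; Dmc1, Tex11 and Msh5 were not called. The median log2 fold change was 1.29 over the 9 genes and 0.07 over all genes. Both FLAG IP arrays lay above both input arrays for 7 of the 9 genes, against 42% of all genes. The median of the 9 genes was 1.31 without input 1, 1.27 without input 2, 1.34 without FLAG IP 1 and 1.25 without FLAG IP 2. The median over all genes lay between -0.002 and 0.158 in these fits. The calls of Hormad1 and Mei1 were lost without either input array, when calls over all genes also fell. Calls over all genes rose without either FLAG IP array. Each such fit leaves 1 array in a group, so its number of calls is not set against the 6. Within the slide that held both groups, which left out input 1, the calls of Hormad1 and Mei1 were lost as well.

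**Figure D1:**
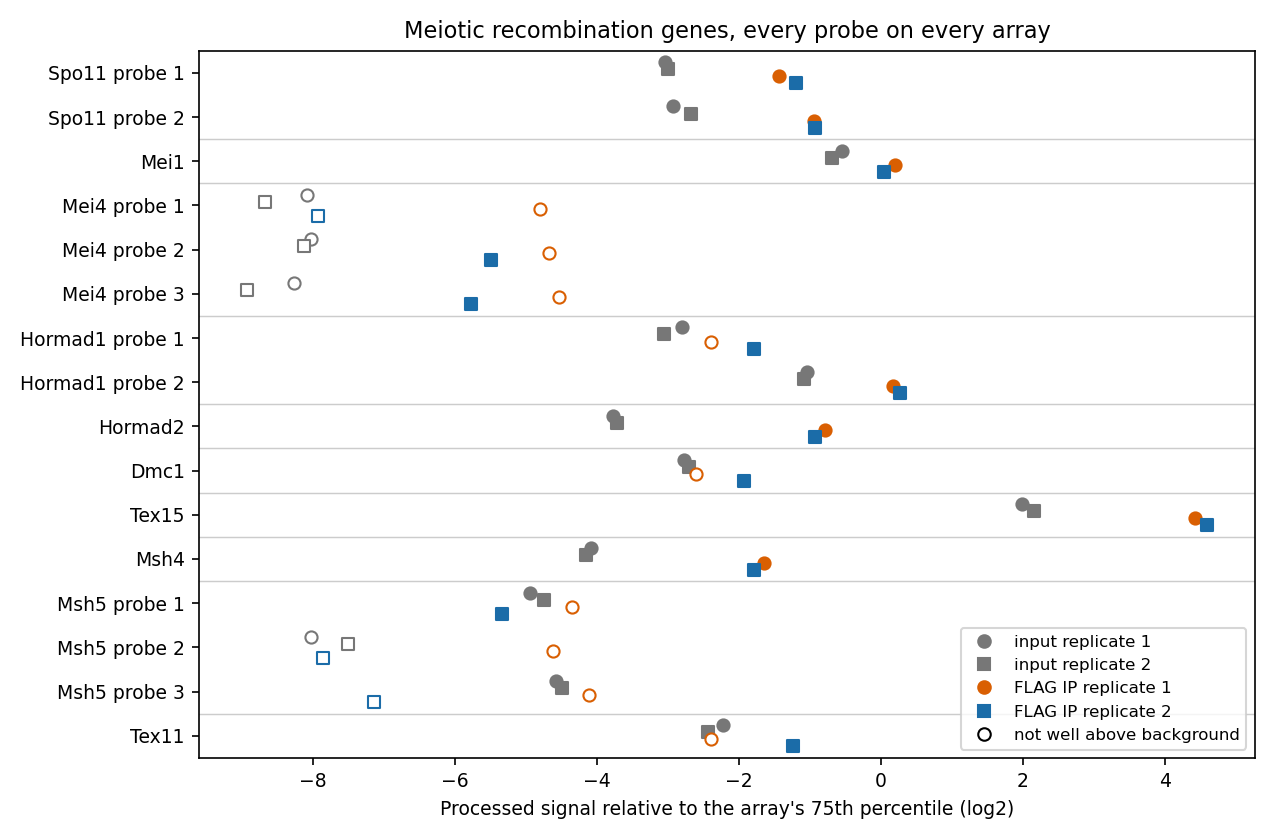
Scaled log2 signal (x axis, log2 relative to the 75th percentile of the array) of every probe of the 10 recombination genes (rows) on the 4 arrays; each point is 1 array, grey for input and coloured for FLAG IP, and open points were not well above background. Both FLAG IP points lie to the right of the input points for both Spo11 probes, Mei1, both Hormad1 probes, Hormad2, Dmc1, Tex15 and Msh4, and they overlap them for Tex11 and both tested Msh5 probes. The open FLAG IP 1 points of Msh5 and Mei4 lie near -4.46, the median of spots not well above background on that array. Those of Dmc1 (-2.60), the dimmer Hormad1 probe (-2.40) and Tex11 (-2.40) lie above it.

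Among the genes of break formation, Spo11 and Mei1 were higher in the FLAG IP and Mei4 was not bright enough to be tested. Spo11 encodes the enzyme that cuts the DNA. Its brighter probe gave scaled log2 values of -2.92 and -2.68 in the input and -0.94 and -0.93 in the FLAG IP. The FLAG IP arrays were nearly equal and both lay above the input arrays. The log2 fold change was 1.87 ± 0.18 (SE), or 3.65-fold (adjusted p = 0.0041), and 7.99% of all genes had a larger one. The second Spo11 probe, with scaled log2 values of -3.04 and -3.0 in the input and -1.43 and -1.20 in the FLAG IP, gave 1.71 ± 0.18, so the probes differed by less than their SEs. On FLAG IP 2 the unscaled Spo11 signal was 320 intensity units against 135 and 162 in the input, 2.15 times the input mean, although that array was dimmer as a whole. On the dim FLAG IP 1 the unscaled Spo11 signal was 29.1, below the input.

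Mei1 encodes a factor that is needed for break formation. Its scaled log2 values were -0.55 and -0.68 in the input and 0.20 and 0.05 in the FLAG IP, so the groups did not overlap but lay close together. It rose by 0.74 ± 0.17 (log2), or 1.67-fold (adjusted p = 0.0259), and 31% of all genes had a larger one. Unscaled, the signal on FLAG IP 2 was 0.934 times the input mean. Leaving out input 1 gave 0.80 (adjusted p = 0.281) and leaving out input 2 gave 0.67 (adjusted p = 0.359), neither of which was called.

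Mei4, whose product works in a complex with REC114 at sites of breaks, had 3 probes under its older name 4930486G11Rik. None was well above background in the input, where the signals lay between 2.13 and 3.93 intensity units, or on FLAG IP 1, where they were at most 2.41. On FLAG IP 2 a pair of the probes were well above background, at 13.5 and 11.1 intensity units, and the third was not, at 2.49. Thus 1 array of 4 measured Mei4, by 2 of its 3 probes, and its change was not tested in the reported fit. Without the filter on dim probes, limma gave Mei4 2.99 ± 0.36 (adjusted p = 0.0228), from values at background on 3 of the 4 arrays. That value is not read as a change. The same setting called 6 of the recombination genes, with Mei4 among them and without Mei1 (adjusted p = 0.0658).

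Of the other break formation genes on the array, 5 were measured. Of these, 2 (40%) were higher, 2 (40%) lower and 1 not called, against 28% higher and 25.4% lower over all genes. Their median log2 fold change was -0.35. Ankrd31, which helps place breaks in the region shared by the sex chromosomes, rose by 2.42 ± 0.22 (adjusted p = 0.0040). Iho1, whose product binds HORMAD1 and is needed for breaks, rose by 2.09 ± 0.24 (adjusted p = 0.0056). Prdm9, the histone methyltransferase that marks break sites, had -1.52 ± 0.17 (adjusted p = 0.0053), and Rec114, the partner of Mei4, had -1.35 ± 0.34 (adjusted p = 0.0328), with 2 of 2 probes lower. Zcwpw1, a reader of the PRDM9 marks, had -0.35 ± 0.22 (adjusted p = 0.254), with 1 of its 2 probes lower. Transcripts of proteins that work together at the break thus lay on both sides, with Iho1 and Mei1 higher and Rec114 lower.

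Both axis genes were higher in the FLAG IP. HORMAD1 and HORMAD2 coat the unpaired chromosome axis and watch over pairing. Hormad2 had scaled log2 values of -3.78 and -3.72 in the input and was at -0.79 and -0.92 in the FLAG IP. Its log2 fold change of 2.89 ± 0.16, or 7.44-fold (adjusted p = 0.0038), was the highest of the 9 genes, and 1.53% of all genes had a larger one. The unscaled signal was 74.9 and 78.8 intensity units in the input, 32.3 on the dim FLAG IP 1 and 322 on FLAG IP 2, 4.19 times the input mean.

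Hormad1 was measured by 2 probes. The brighter probe had scaled log2 values of -1.04 and -1.09 in the input and 0.18 and 0.27 in the FLAG IP, with each pair of arrays close together. The log2 fold change was 1.29 ± 0.16, or 2.45-fold (adjusted p = 0.00605). Leaving out 1 input array kept the size, at 1.31 without input 1 (adjusted p = 0.0974) and 1.27 without input 2 (adjusted p = 0.103), but not the call. The second Hormad1 probe was at -2.80 and -3.05 in the input and at -2.40 and -1.78 in the FLAG IP, where FLAG IP 1 was not well above background. It gave 0.84 ± 0.29 (adjusted p = 0.0846 over all probes), the same direction without a call.

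**Figure D2:**
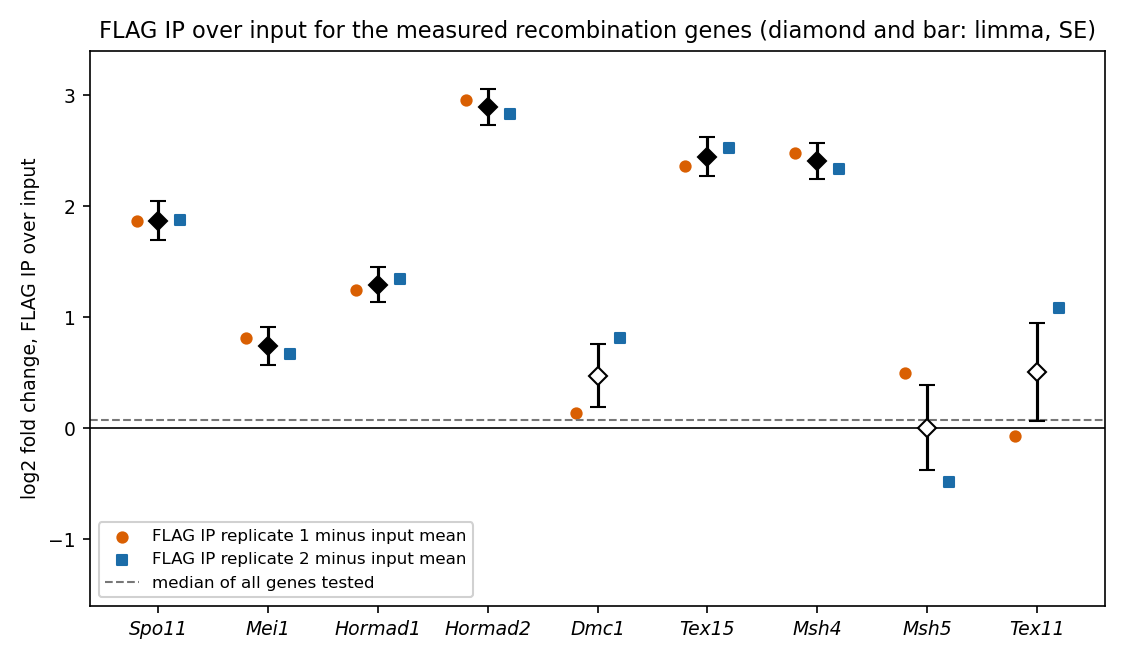
Log2 fold change of FLAG IP over input (y axis) of each measured recombination gene; diamonds and bars are limma's value and SE (n = 2 arrays per group, filled where called at an adjusted p under 0.05), the small points each FLAG IP array minus the input mean, and the dashed line the median of all genes tested. Hormad2 is highest at 2.89, Mei1 is the lowest called gene at 0.74, and the FLAG IP arrays lie far apart for Dmc1, Msh5 and Tex11.

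The genes of strand exchange split. Tex15, whose product is needed to load the recombinases on broken ends and which also acts in transposon silencing in fetal male germ cells, was called. Its scaled log2 values were 1.99 and 2.15 in the input and 4.44 and 4.60 in the FLAG IP. It rose by 2.45 ± 0.17 (log2), or 5.45-fold (adjusted p = 0.0038), with 3.52% of all genes larger. The unscaled signal was 4065 and 4619 intensity units in the input, 1206 on the dim FLAG IP 1 and 14710 on FLAG IP 2, 3.39 times the input mean.

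Dmc1, the recombinase made only in meiosis, was not called. Its scaled log2 values were -2.77 and -2.70 in the input, -2.60 on FLAG IP 1 and -1.93 on FLAG IP 2, and FLAG IP 1 was not well above background. Both FLAG IP arrays lay above the input, but by 0.14 and 0.81. The log2 fold change was 0.47 ± 0.28 (adjusted p = 0.226); without FLAG IP 1 it was 0.81 (adjusted p = 0.00237), which was called, in a fit that takes the lone FLAG IP array to vary like the input arrays. Unscaled, FLAG IP 2 was 1.03 times the input mean.

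Of 14 other strand exchange genes measured, 8 (57.1%) were higher, 3 (21.4%) lower and 3 not called, against 28% and 25.4% over all genes. Their median was 0.95. Meiob, which makes a single-strand binding protein of meiosis, rose by 2.37 ± 0.17 (adjusted p = 0.0038). Fignl1, a regulator of recombinase filaments, rose by 1.68 ± 0.22 (adjusted p = 0.0066), and Palb2, which brings BRCA2 to breaks, by 1.60 ± 0.16 (adjusted p = 0.0042). The 3 lower genes, Swi5 (-2.26 ± 0.25, adjusted p = 0.0051), Psmc3ip (-1.95 ± 0.23, adjusted p = 0.0055) and Mnd1 (-1.15 ± 0.20, adjusted p = 0.0138), are accessory factors of the recombinases, and the products of Psmc3ip and Mnd1 form the HOP2-MND1 complex that works with DMC1. Rad51ap1 (0.33 ± 0.16, adjusted p = 0.144) and Rad54l (-0.12 ± 0.17, adjusted p = 0.60) were not called. The 10 genes of end processing measured had 6 (60%) higher and 1 (10%) lower, against the same 28% and 25.4%, with a median of 0.99. The nuclease gene Dna2 rose by 1.94 ± 0.31 (adjusted p = 0.0106), Rbbp8, which encodes CtIP, by 1.43 ± 0.19 (adjusted p = 0.0071), and Nbn, of the MRE11 complex, by 1.42 ± 0.17 (adjusted p = 0.0055). Among the subunits of the single-strand binding protein RPA, Rpa2 had -1.02 ± 0.17 (adjusted p = 0.0114), Rpa1 0.02 ± 0.26 (adjusted p = 0.954) and Rpa3 0.59 ± 0.20 (adjusted p = 0.0694).

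Of the crossover genes, Msh4 was higher and Msh5 and Tex11 were not called. Msh4, which encodes a partner in the MutS homologue complex that stabilises joined molecules, had scaled log2 values of -4.09 and -4.16 in the input and -1.65 and -1.79 in the FLAG IP, with a wide gap between the groups. Its log2 fold change was 2.40 ± 0.16, or 5.29-fold (adjusted p = 0.0038), with 3.82% of all genes larger. The unscaled signal was 60.4 and 58.2 intensity units in the input, 17.8 on the dim FLAG IP 1 and 176 on FLAG IP 2, 2.97 times the input mean.

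Msh5, the partner of Msh4 in that complex, was close to background in the FLAG IP. The probe that stood for it had 33.2 and 38.7 intensity units in the input, 2.73 on FLAG IP 1, where it was not well above background, and 15.1 on FLAG IP 2. The scaled log2 values were -4.95 and -4.74 in the input and -4.35 and -5.33 in the FLAG IP, so the FLAG IP arrays lay on either side of the input. The value on FLAG IP 1 was near the -4.46 of spots not well above background there. The log2 fold change was 0.01 ± 0.38 (adjusted p = 0.992). It was -0.49 without FLAG IP 1 and 0.50 without FLAG IP 2, so its direction went with which array was kept. A second probe, at 42.8 and 46.2 intensity units in the input and 3.22 and 4.30 in the FLAG IP, was not well above background on either FLAG IP array and gave -1.09 ± 1.10 (adjusted p = 0.467 over all probes). The third was not well above background on any array.

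Tex11, an X-linked gene whose product promotes crossovers, had scaled log2 values of -2.22 and -2.43 in the input, -2.40 on FLAG IP 1 and -1.24 on FLAG IP 2. FLAG IP 1 fell between the input arrays and was not well above background. The log2 fold change was 0.51 ± 0.44 (adjusted p = 0.383), with 1.08 without FLAG IP 1 and -0.07 without FLAG IP 2.

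Of 10 other crossover genes measured, 7 (70%) were higher and 1 (10%) lower, against 28% and 25.4% over all genes, with a median of 1.05. Eme1 rose by 1.28 ± 0.32 (adjusted p = 0.0330), Mlh3 by 1.22 ± 0.23 (adjusted p = 0.0155) and Slx4 by 1.19 ± 0.16 (adjusted p = 0.0068); they encode a nuclease subunit, a MutL homologue of the crossover step and a nuclease scaffold. Mus81, the partner of Eme1 in a nuclease, had -1.45 ± 0.16 (adjusted p = 0.0049). Gen1, another nuclease of joined molecules, had 0.99 ± 0.89 (adjusted p = 0.399) with 2 of its 3 probes higher. Partners had different calls in 2 cases, Msh4 and Msh5 and Eme1 and Mus81, and the difference within a pair was not tested.

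Detection on the dim FLAG IP 1 followed the calls. The 6 genes called were well above background on FLAG IP 1, and the 3 not called (Dmc1, Tex11 and Msh5) were not. Over all genes well above background on both input arrays, 32.8% of the 11448 that were also so on FLAG IP 1 were called higher, against 13.4% of the 3803 that were not. The median SD of the FLAG IP arrays was 0.267 in the first set and 0.491 in the second, on the scaled log2 scale. FLAG IP 1 also enters the fold change, so a gene high in the FLAG IP is more likely to fall in the first set. The shares were thus in part bound to differ in this direction, as was the split of the recombination genes. The part of detection in the missing calls was not tested.

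**Figure D3:**
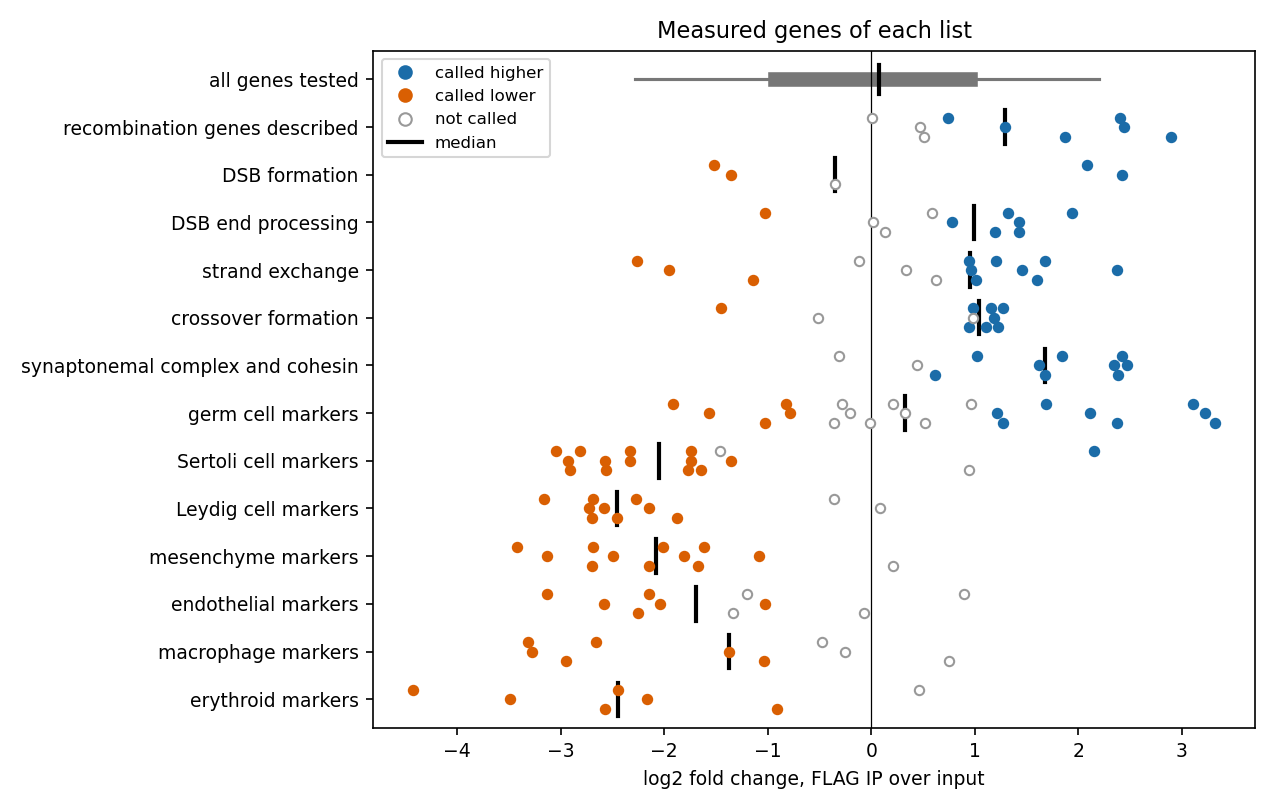
Log2 fold change of FLAG IP over input (x axis) of each measured gene (points) in each list (rows), blue where called higher, orange where called lower and open where not called, with the median as a black tick; the top row gives all genes tested, with the middle of their distribution as a thick bar. DSB stands for double-strand break; the recombination rows have medians from -0.35 to 1.29, and the somatic marker rows lie mostly below 0.

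Over the 4 roles together, 39 other recombination genes were measured of 52 listed. Of these, 23 (59%) were higher, 7 (17.9%) lower and 9 not called, against 28% higher and 25.4% lower over all genes. Their median was 0.98. Without input 1 or without input 2, most of these calls were lost in both directions, and so were most calls over all genes. Each of those fits leaves 1 input array. Of 11 synaptonemal complex and cohesin genes, which build the structure that recombination works on, 9 (81.8%) were higher and 0 lower. The shares over all genes were the same 28% and 25.4%, and the median of the 11 was 1.68. Sycp1, a filament protein of that structure, rose by 2.47 ± 0.16, and its partners Six6os1 and Tex12 by 2.42 ± 0.18 and 2.38 ± 0.16 (adjusted p = 0.0038 for each).

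In the same comparison germ cell markers went both ways and most somatic markers were lower. Of 21 germ cell markers, 8 (38.1%) were higher, 5 (23.8%) lower and 8 not called, against 28% and 25.4% over all genes, with a median of 0.33. Their summed scaled level was 116 to 125 times the array's 75th percentile in the input and 213 to 235 times in the FLAG IP. A few bright genes weigh most in it, among them genes called higher, called lower and not called. Sox2, a pluripotency factor, rose by 3.32 ± 0.16 (adjusted p = 0.0038), whereas Ifitm3, a marker of early germ cells, had -1.91 ± 0.28 (adjusted p = 0.00888). Of the somatic markers 13 of 16 Sertoli, 9 of 11 Leydig, 11 of 12 mesenchymal, 6 of 10 endothelial, 6 of 9 macrophage and 6 of 7 erythroid genes were lower, and 1 Sertoli gene, Dmrt1, which germ cells also make, was higher at 2.15 ± 0.17 (adjusted p = 0.0038). The summed Sertoli level was 179 to 197 in the input and 33.1 to 38.2 in the FLAG IP, and the Leydig sum 183 to 198 and 51.6 to 81.5. No measured marker was at 0, and each was well above background on both input arrays. The part of these shifts in the recombination results was not tested.

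The authors' deposited table of FLAG IP to input ratios comes from the same arrays and is not a separate test. For each measured recombination gene its log2 ratio lay below the log2 fold change given above, by nearly the same amount. For Hormad2 it was 2.78 against 2.89, and for Mei1 0.62 against 0.74. The order of the genes was therefore bound to be the same and adds no evidence. In the authors' deposited table the ratio was 6.85 for Hormad2, 5.01 for Tex15, 4.87 for Msh4, 3.35 for the brighter Spo11 probe, 2.26 for the brighter Hormad1 probe and 1.54 for Mei1. In that authors' deposited table Tex11 had 1.30, Dmc1 1.28 and the Msh5 probe used above 0.923, and these ratios come from means of 2 arrays with no error of their own.

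**Figure D4:**
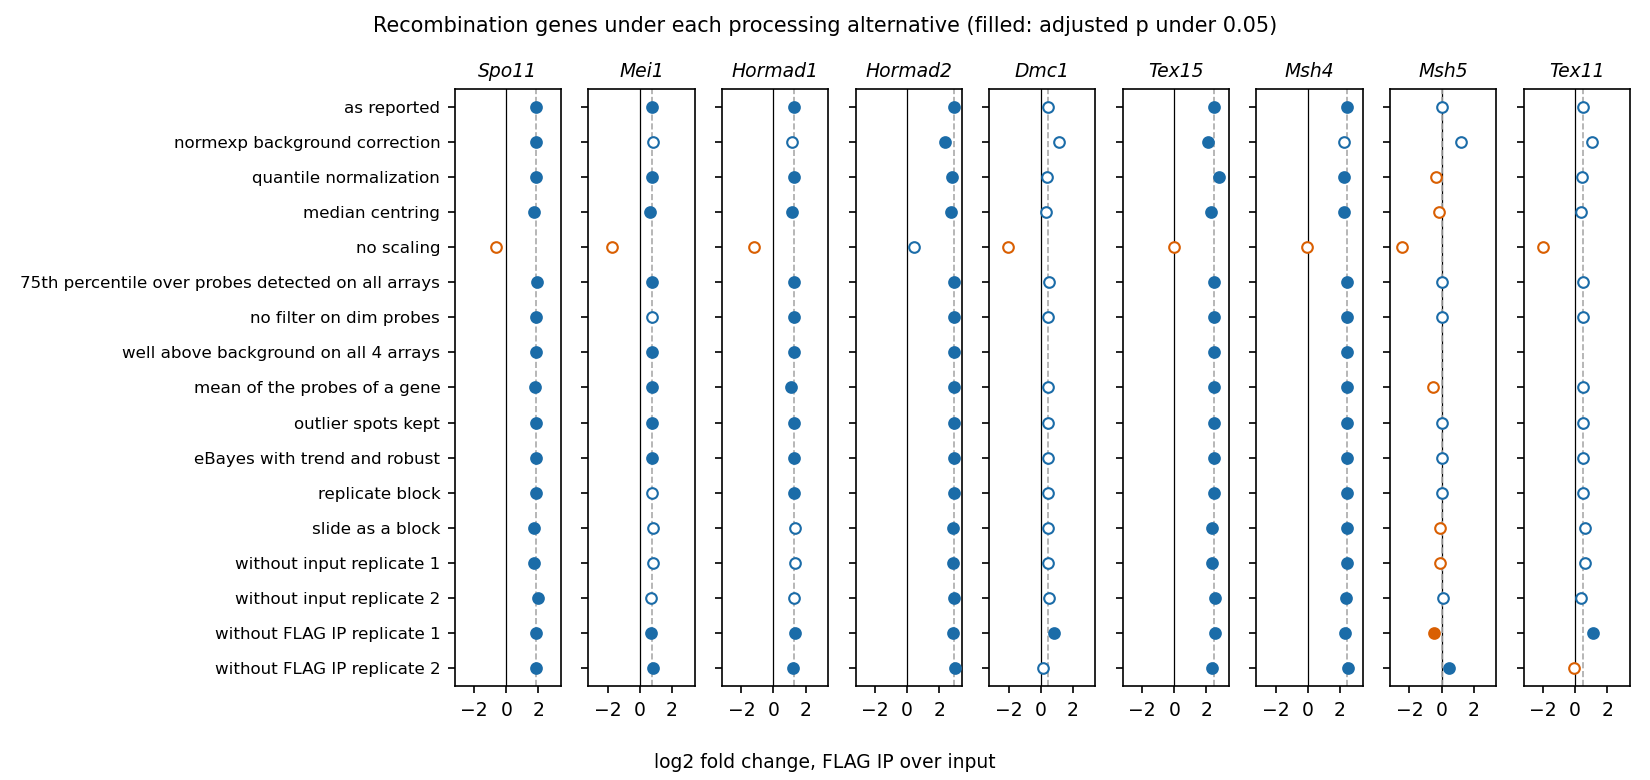
Log2 fold change of FLAG IP over input (x axis) of each measured recombination gene (panels) under each processing alternative (rows); filled points were called at an adjusted p under 0.05, orange points lie below 0, and the dashed line is the reported value. All genes called as reported keep their call under most settings, Hormad1 and Mei1 under fewer than Hormad2, Tex15, Msh4 and Spo11. Without scaling every gene except Hormad2 lies below 0.

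Without any scaling between arrays, the median of all genes was -2.41 in place of 0.07, since FLAG IP 1 was dim as a whole. Hormad2 was then at 0.41, the other 8 genes lay between -2.48 and -0.04, and limma called 0 genes in either direction over the whole array, with 0 higher and 4048 lower at an unadjusted p under 0.05. Relative to the median of all genes, all of these genes but Msh5 stayed above it without scaling. The direction of the recombination genes is therefore stated relative to the other transcripts on the array.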

How the data were processed

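Each group had 2 Agilent one-colour arrays of whole-gonad RNA, with 0.20 µg of RNA labelled per array, per the labels' protocols. The deposited scanner files hold the processed, background-subtracted intensity of each spot, and the submitters' processing notes name Agilent Feature Extraction 9.5. The authors' deposited table gives a FLAG IP to input ratio per probe and pooled raw intensity per group; the raw intensity equals the mean of the 2 arrays, as checked on the files, and the ratio was used only for comparison. Its per-sample columns not used here numbered 0. Genome coordinates refer to RefSeq start regions only.

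The log2 of the processed intensity minus the 75th percentile of the 43379 non-control spots was analysed, and spots marked as outliers (52 to 104 per array) were set to missing. To be tested, a probe had to be well above background on both input or both FLAG IP arrays, and the probe with the highest mean stood for its gene. Of 41174 probes, 31004 were named by Entrez ID, 464 by an older symbol and 1108 by the file's name, and 8598 had none. FLAG IP and input were compared in limma 3.58.1 with R 4.3.3 (two-sided lmFit and eBayes without a block; 2 residual and 2.08 prior degrees of freedom), with Benjamini-Hochberg adjustment over 15277 genes or 26543 probes and a threshold of 0.05. With 2 arrays per group, the number of arrays limits the precision. The fit was tested on simulated data, and that test is not used as support for any result here.

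The genes, the lists of other recombination genes and the markers were chosen with earlier results of these data known. The text names each recombination gene with its probes, Nanos2 and, per role list, up to 3 genes called in each direction and up to 2 not called with the highest mean; of the synaptonemal complex, cohesin and germ cell lists up to 3 in each direction. A gene that this rule would name is not reported here. Dmrt1 was named after its value was seen. Of the 52 other recombination genes listed, 11 had no matched probe and 2 (Hsf2bp and Cntd1) were not bright enough. The alternatives were background correction by normexp (offset 50), other scalings, filters, probe rules and variance models, a block for replicate number or for slide, and leaving out single arrays.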

Additional observations from a re-analysis of the deposited data

How the results depend on the processing

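The counts over genes were recomputed under 17 other settings, and single genes under 15 or 16. The higher calls over all genes were 4284 as reported, 1262 with normexp, 0 without scaling, 1418 with the slide as a block and between 1418 and 6854 with 1 array left out; the lower calls were 3882, 1393, 0, 1517 and between 1517 and 6210, and 5953 over every probe on its own, where 6174 were higher. The higher recombination genes numbered 6 as reported, 3 with normexp (Spo11, Hormad2 and Tex15), 0 without scaling and between 4 and 8 with 1 array left out; without FLAG IP 1 the lower ones numbered 1 (Msh5), against 0 as reported. Their higher probes numbered 7 as reported, 0 with normexp, without scaling, without the filter on dim probes and with the slide as a block, and between 0 and 10 with 1 array left out; without FLAG IP 1 the lower probes numbered 2. The other recombination genes, 23 higher and 7 lower as reported, were 6 and 1 with normexp, 0 and 0 without scaling, and 5 and 2 with the slide as a block; 13 were higher without the filter and 13 probes lower over every probe. With 1 array left out they were 4 to 28 higher and 2 to 10 lower.

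The median log2 fold change of the recombination genes, 1.29 over 9 genes as reported, was 1.16 with median centring and -1.19 without scaling. It was 1.06 with the mean of a gene's probes. Other settings changed the set: 1.58 over 10 genes without the filter and 1.06 over 12 probes with every probe. With the filter on all 4 arrays it was 2.14 over 6 genes, which were those called higher as reported. The median of all genes moved from 0.07 to 0.38 with normexp, to -0.06 with median centring and to -2.41 without scaling. Without the filter it was 0.55, over 20157 genes in place of 15277. Without scaling Spo11 was at -0.62, Dmc1 -2.01, Hormad1 -1.19, Msh4 -0.082, Msh5 -2.48, Mei1 -1.75, Tex11 -1.98 and Tex15 -0.041. Msh5 was at -0.33 with quantile normalization, -0.13 with median centring, -0.54 with the mean of its probes, -0.10 with the slide as a block and without input 1, -0.49 without FLAG IP 1 and 0.50 without FLAG IP 2; Tex11 was at 1.08 without FLAG IP 1 and -0.071 without FLAG IP 2. The causes were not tested.

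The slide block equals leaving out input 1, since the other 3 arrays shared a slide. Same-numbered arrays were not shown to be paired: the correlation of their deviations from the group means was 0.05, and with 2 arrays a group both pairs share that value. With the replicate number as a block, 5 recombination genes, 4139 genes over all and 22 other recombination genes were higher; Mei1 lost its call at 0.74 (adjusted p = 0.0652). Dmc1, Tex11, Msh5 and Mei4 were not well above background on FLAG IP 1, so their values there are uncertain.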

Other observations

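In the authors' deposited table the 3 Mei4 probes had FLAG IP to input ratios of 7.32, 9.77 and 3.64, although none was well above background on either input array or on FLAG IP 1. In the authors' deposited table the 3 Msh5 probes had ratios of 0.923, 0.432 and 2.61, of which the last belongs to a probe not well above background on any array.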
